A study of Mus musculus with 12 samples.

Results

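The genes described here are 5 of the 32867 in the gene table, chosen by their symbols: Prkg1 and Prkg2, which encode the cGMP-dependent protein kinases I and II (PKG), and Hcn2, Hcn3 and Hcn4, which encode subunits of the hyperpolarisation-activated, cyclic nucleotide-gated cation channels (HCN). RNA was taken from whole retinas of 3 mouse models of inherited retinal degeneration (RD) and of wild-type C3H mice, with 3 samples per group and 12 in all. Pde6b rd1 (rd1, C3H background by the study's methods, postnatal day 13) carries a viral insertion in the gene for the rod phosphodiesterase beta subunit, and no functional enzyme is made. Pde6b rd10 (rd10, C57Bl6/J by the methods, postnatal day 23) has a point mutation in the same gene, which lowers the activity of the enzyme. Prph rd2 (rd2, postnatal day 29) lacks outer segments through a mutation in Prph2, and its background is C57BL6/J in the labels but C3H in the methods. The C3H samples carry wild-type alleles of both genes and, by the labels, hold 1 sample of each day, 13, 23 and 29. Each model was thus taken at its own age, which the study gives as the peak of its photoreceptor death. The question was how the transcripts of each model differ from the wild type at that time. Age and mutation cannot be told apart in these groups, nor can strain for rd10 and, by the labels, for rd2, nor sex as far as the sex-linked transcripts given later show.

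In rods, cGMP is made by guanylate cyclases and broken down by phosphodiesterase 6, and it opens the cyclic nucleotide-gated (CNG) channels of the outer segment. When the phosphodiesterase fails, cGMP builds up, and PKG is regarded as one of the effectors through which it harms photoreceptors. Prkg1 gives a soluble kinase that is abundant in smooth muscle and in some neurons, while the kinase from Prkg2 is anchored to membranes. HCN channels open when the membrane hyperpolarises and open more readily when cyclic nucleotides, above all cAMP, bind them. In the retina the isoforms described here have been found mostly in bipolar cells and further inner neurons.

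On GRCm38, with gene models of GENCODE vM21, the 5 genes lie on 5 autosomes. Prkg1 is on chr19:30564489-31765033 (minus strand), Prkg2 on chr5:98929773-99037351 (minus), Hcn2 on chr10:79716634-79736108 (plus), Hcn3 on chr3:89146074-89160196 (minus) and Hcn4 on chr9:58823412-58863175 (plus). Prkg2 lies 9.35 Mb from Pde6b, the gene mutated in rd1 and rd10, on the same chromosome. An intron of Prkg1 holds the antisense gene Cstf2t, which touches no Prkg1 exon, and the end of Hcn3 overlaps antisense Pklr, which had at most 3 reads in any sample. The base composition of the genes differed widely, and this bears on the results for Hcn2, Prkg1 and Hcn4. The longest transcript of Hcn2 was 65.4% G and C, more than in 99.4% of the genes tested. The values were 58.0% for Hcn3 and for Hcn4, 46.2% for Prkg2 and 41.5% for Prkg1.

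The windows of 250 bases before the RefSeq transcription starts (GRCm38.p6) are shown for Hcn2 and Prkg1, the 2 members that differed between rd1 and C3H, to let their sequences be compared. They are written 5′ to 3′ on the strand of the gene, with the letters of the GC box (GGGCGG, or CCGCCC on the other strand) in capitals. Prkg1 has 2 annotated starts, and neither Hcn3 nor Prkg2 had an entry. The window of Hcn4, which did not differ between rd1 and C3H in the main test, is not shown. It was 71.2% G and C and held 2 GC boxes.
Hcn2, chr10:79716384-79716633, plus strand: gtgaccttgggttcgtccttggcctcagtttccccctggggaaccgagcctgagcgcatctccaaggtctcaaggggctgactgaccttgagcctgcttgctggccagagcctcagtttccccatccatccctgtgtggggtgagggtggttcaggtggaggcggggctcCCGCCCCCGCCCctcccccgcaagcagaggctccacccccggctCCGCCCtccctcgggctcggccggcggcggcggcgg
Prkg1, start at the outer end of the gene, chr19:31765034-31765283, minus strand: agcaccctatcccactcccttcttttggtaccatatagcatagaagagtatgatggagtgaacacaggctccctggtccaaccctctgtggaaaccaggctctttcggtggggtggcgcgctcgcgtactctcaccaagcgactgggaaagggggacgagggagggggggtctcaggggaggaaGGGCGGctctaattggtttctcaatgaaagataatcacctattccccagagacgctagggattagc
Prkg1, inner start, chr19:31664371-31664620, minus strand: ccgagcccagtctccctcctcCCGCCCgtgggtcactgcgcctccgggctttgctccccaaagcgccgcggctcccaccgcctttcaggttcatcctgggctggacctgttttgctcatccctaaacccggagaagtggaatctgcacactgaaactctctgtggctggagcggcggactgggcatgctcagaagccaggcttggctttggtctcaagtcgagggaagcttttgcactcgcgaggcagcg
The Hcn2 window was 70.4% G and C, against 55.2% and 62.8% in the Prkg1 windows. It held 3 GC boxes, while each Prkg1 window held 1. Of all 32851 promoter windows of this length, 32.7% held at least 1 GC box. The letters TAATCC, which the photoreceptor factors CRX and OTX2 bind, were found in the outer Prkg1 window alone among these 3, read on either strand, and in 6.25% of all windows. A match of letters is a description and no evidence of a binding site.

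The gene counts summed to 17049495 to 24755890 reads in a sample, of which the 5 members had between 93 and 1210 reads each. Pde6b had a log2 fold change over C3H of -2.16 in rd1, of -0.57 in rd10 and of -0.24 in rd2. Prph2 had one of -1.06 in rd2, of -0.83 in rd1 and of -0.49 in rd10, so that a lower Prph2 level was not particular to the model that carries its mutation. Markers of all retinal cell classes were present, with no listed marker at 0 in a whole group. Xist, the transcript of the inactive X chromosome, was at most 0.517 CPM (counts scaled to the size of the library, after TMM normalisation) in the C3H samples, and between 3657 and 3890 CPM in the rd1 samples, where the Y-linked genes Ddx3y, Eif2s3y, Kdm5d and Uty had no reads, which allows up to 0.176 CPM. The rd10 and rd2 samples held both Xist, at 715 to 802 and 1558 to 1980 CPM, and these Y-linked genes. Sex therefore cannot be told apart from the comparison of any model with C3H, and the labels do not say whether samples came from separate animals, so p-values may measure technical spread only. Over all genes, the coefficient of variation within a group beyond counting error was 3.12% in C3H, 3.37% in rd1, 5.04% in rd10 and 7.52% in rd2. The C3H samples, of 3 days by the labels, thus varied no more than the models, each of 1 day. Whether they differ in age as labelled was not tested. Libraries also differed in how they represented GC-rich genes. This was measured as a GC tilt: the median log2 difference from the mean of the 12 samples among the 10% of genes richest in G and C, minus that among the 10% poorest. It lay between 0.05 and 0.27 in C3H, between -0.33 and -0.09 in rd1, between -0.14 and 0.29 in rd10 and between -0.28 and 0.22 in rd2.

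The levels of the members set the 2 kinases apart from each other and the channels close together. In C3H, Prkg1 had 5.03 ± 0.105 FPKM (reads scaled by gene length and by the size of the library; mean ± SD, n = 3) and Prkg2 1.19 ± 0.0746, so the Prkg1 level per length was 4.23-fold that of Prkg2. Hcn2 had 8.70 ± 0.312 FPKM, Hcn3 9.28 ± 0.378 and Hcn4 7.99 ± 0.244. The FPKM of Prkg1 rest on a length of 7799 bp, as read from the ratio of counts to FPKM, while its exons in vM21 cover 10861 bp; for the other members the lengths were equal.

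**Figure D1:**
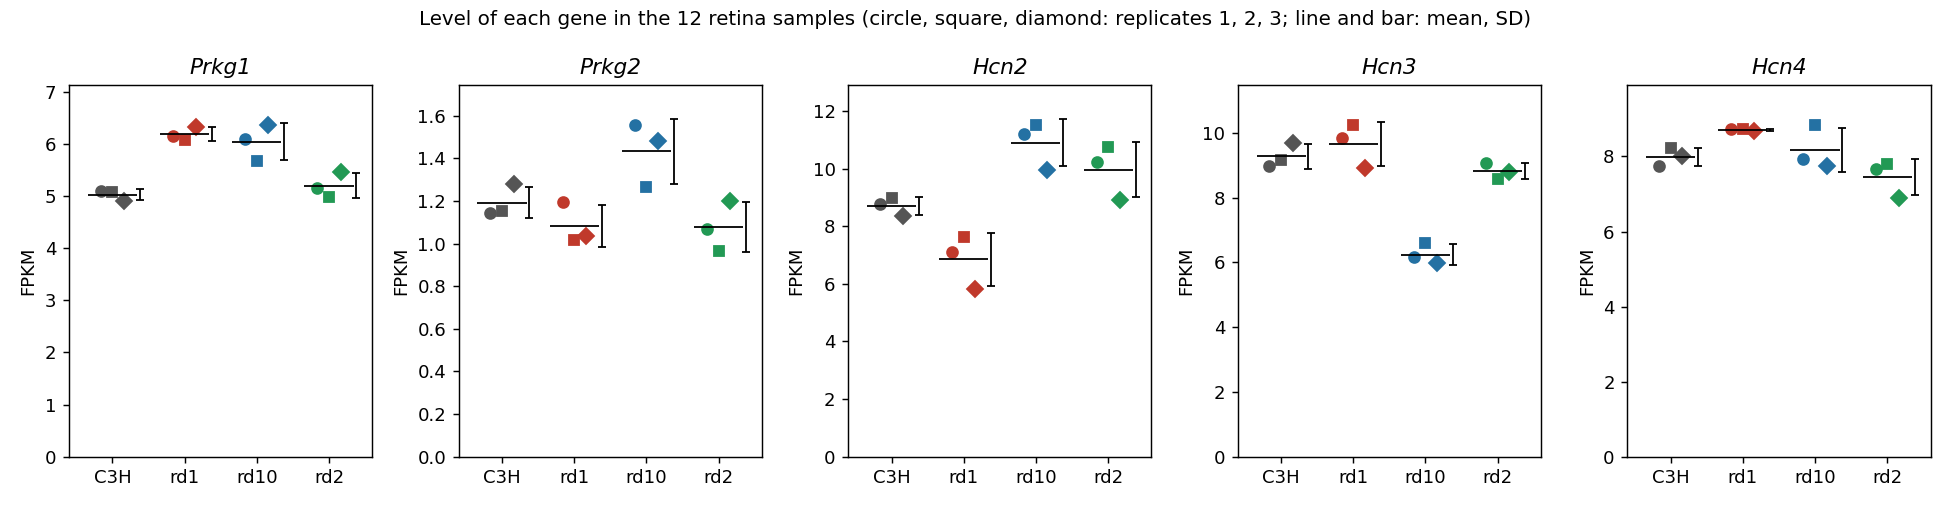
FPKM of the 5 genes (y axes, each from 0) in the 3 samples of each group (x axes); points are samples, with the marker showing the replicate number, horizontal lines are group means and bars the SD. Prkg1 was higher in every rd1 and rd10 sample than in any C3H or rd2 sample, Hcn2 was lowest in rd1 and Hcn3 was lowest in rd10.

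In comparison with C3H, the members moved little and in different directions. In rd1, Prkg1 was higher and Hcn2 lower. In rd10, Prkg1 and Hcn2 were higher and Hcn3 lower. In rd2, no member passed the test. A gene was called where its unadjusted p was under 0.05 and its fold change at least 1.5, the thresholds of the study's methods, and an adjusted p under 0.05 (Benjamini-Hochberg over all genes tested) was used as the other criterion. All 5 members passed the filter on low counts in every comparison. In rd1, 0 of the 5 members were called, where 15% of the 18310 genes tested were, and 2 had an adjusted p under 0.05, where 43.2% of all genes did. In rd10, 1 member was called, against 23.9% of 18704 genes, and 3 had an adjusted p under 0.05, against 54.1%. In rd2, 0 were called, against 4.57% of 18581 genes, and 0 had an adjusted p under 0.05, against 9.7%, although Hcn2 and Hcn4 had unadjusted p of 0.0466 and 0.0469. DESeq2 gave 0 there as well. The counts of members lay near or below the background of all genes.

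**Figure D2:**
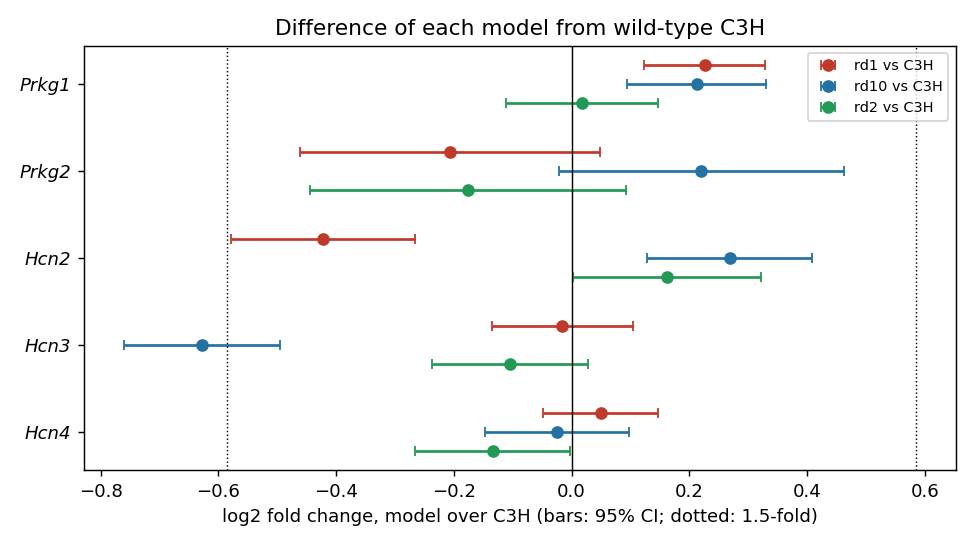
Log2 fold change of each of the 5 genes (y axis) in rd1, rd10 and rd2 over C3H (x axis), as points with 95% confidence intervals from edgeR; dotted lines mark a 1.5-fold change. The value for Hcn3 in rd10 (-0.63) lies beyond the line, while Hcn2 in rd1 (-0.42) and Prkg1 in rd1 (0.23) and rd10 (0.21) lie inside it with intervals that leave out 0.

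Prkg1 was higher in both Pde6b mutants. Its FPKM were 5.10, 5.08 and 4.91 in the C3H samples of days 13, 23 and 29. They were 6.15, 6.08 and 6.34 in rd1 and 6.10, 5.67 and 6.37 in rd10. In rd2 they were 5.15, 4.99 and 5.47. Every rd1 and rd10 sample was above every C3H and rd2 sample, while rd1 overlapped rd10 and rd2 overlapped C3H. Ranges of CPM that did not overlap with C3H were found for 51.8% of all genes in rd1, 59.2% in rd10 and 28.8% in rd2. Between models, the share was 63.2% for rd10 and rd1, 49.0% for rd10 and rd2 and 47.6% for rd2 and rd1. The order of the mean levels was rd1, rd10, rd2 and C3H by FPKM, and rd10 stood before rd1 by CPM. The log2 fold change over C3H was 0.23 (SE 0.05, adjusted p = 6.9e-04) in rd1 and 0.21 (SE 0.06, adjusted p = 0.0034) in rd10 by edgeR, a 1.17-fold and a 1.16-fold difference. In rd2 it was 0.02, with a 95% confidence interval of -0.11 to 0.15 (adjusted p = 0.899). With the GC trend of each library removed, as described below for Hcn2, the rd1 value was smaller, at 0.16 (adjusted p = 0.0042 by edgeR). The rd10 value lay between 0.18 and 0.27 over 19 alternative settings. Against the C3H sample of the same day alone, the log2 fold changes were 0.20 in rd1 and 0.20 in rd10, and neither passed (adjusted p = 0.051 and 0.109). In bulk tissue, fewer cells of a type and less RNA per cell cannot be told apart, and this applies to all differences below.

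Prkg2 was the lowest expressed member, and its groups were not separated from C3H by the test. Its FPKM were 1.14, 1.15 and 1.28 in C3H, 1.19, 1.02 and 1.03 in rd1, 1.56, 1.26 and 1.48 in rd10, and 1.07, 0.965 and 1.20 in rd2. Neighbouring groups in the order of FPKM overlapped throughout, while by CPM the rd1 samples, at most 6.17, lay below the C3H samples, at least 6.31. With 93 to 207 reads per sample, counting error alone gives a coefficient of variation between 7.80% and 9.39%, near the spread of 6.94% to 11.3% seen within groups. The log2 fold changes over C3H were -0.21 in rd1 (95% confidence interval -0.46 to 0.05), 0.22 in rd10 (-0.02 to 0.46) and -0.18 in rd2 (-0.44 to 0.09), with adjusted p of 0.187, 0.117 and 0.441 by edgeR. Without rd10 replicate 2, the lowest of its group, the rd10 value was 0.30 and passed (adjusted p = 0.039). The models did differ from each other. Every rd10 sample was above every rd1 and rd2 sample. Of all genes, 63.2% had CPM ranges that did not overlap between rd10 and rd1, and 49.0% between rd10 and rd2. The log2 difference of rd10 was 0.45 (SE 0.12, adjusted p = 0.0036) over rd1 and 0.40 (SE 0.12, adjusted p = 0.0098) over rd2. Without the highest sample, rd10 replicate 1, the difference from rd2 was 0.33 and missed the threshold (adjusted p = 0.066).

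The FPKM ratio of Prkg1 to Prkg2 had a mean of 4.23 ± 0.341 (SD, n = 3) in C3H, 5.75 ± 0.527 in rd1, 4.24 ± 0.291 in rd10 and 4.85 ± 0.304 in rd2. All rd1 ratios (5.15 to 6.13) were above those of C3H (3.84 to 4.45), as were those of rd2 (4.56 to 5.17), while those of rd10 (3.92 to 4.49) overlapped C3H. No test was made of the ratio. It rests on the 93 to 207 reads of Prkg2 in a sample, and the nearest values of rd2 and C3H were 4.56 and 4.45. In rd2, neither Prkg1 nor Prkg2 passed the test against C3H (adjusted p = 0.899 and 0.441 by edgeR).

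Hcn2 was lower in rd1 and higher in rd10, with group means from 6.85 to 10.9 FPKM. Its product is a channel subunit of the brain and heart that responds strongly to cAMP. In C3H the FPKM were 8.77, 8.97 and 8.36. In rd1 they were 7.11, 7.62 and 5.82, all below C3H. In rd10 they were 11.2, 11.5 and 9.97, all above C3H, and in rd2 they were 10.2, 10.8 and 8.89, overlapping C3H and rd10. CPM ranges that did not overlap with C3H were found for 51.8% of all genes in rd1 and 59.2% in rd10. The log2 fold change over C3H was -0.42 (SE 0.08, adjusted p = 7.0e-05) in rd1, a 1.34-fold lower level, and 0.27 (SE 0.07, adjusted p = 0.0020) in rd10, a 1.20-fold higher level. In rd2 it was 0.16, with a 95% confidence interval of 0.00 to 0.32, and did not pass (adjusted p = 0.202). Without rd2 replicate 3 it was 0.23 and passed (adjusted p = 0.031). Against the C3H sample of the same day alone, the rd1 value was -0.44 (adjusted p = 0.0062) and the rd10 value 0.22 (adjusted p = 0.103).

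The GC tilt of the libraries moved with the Hcn2 level. In rd1, rd10 and rd2 alike, replicate 3 had both the lowest Hcn2 level of its group and the lowest GC tilt, at -0.33, -0.14 and -0.28, and the 3 rd1 libraries all had a lower tilt than any C3H library. Within C3H, the library with the highest tilt had the lowest Hcn2 level. With the GC trend of each library removed before the test, an alternative added after the data were seen, the log2 fold change of Hcn2 was -0.33 in rd1 (adjusted p = 1.9e-04), 0.39 in rd10 (adjusted p = 3.2e-07) and 0.23 in rd2 (adjusted p = 0.020). The difference in rd1 was thus smaller with that correction and those in rd10 and rd2 were larger. Hcn3, which is also GC-rich, followed the order of the tilt within C3H, rd1 and rd10 but not within rd2.

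**Figure D3:**
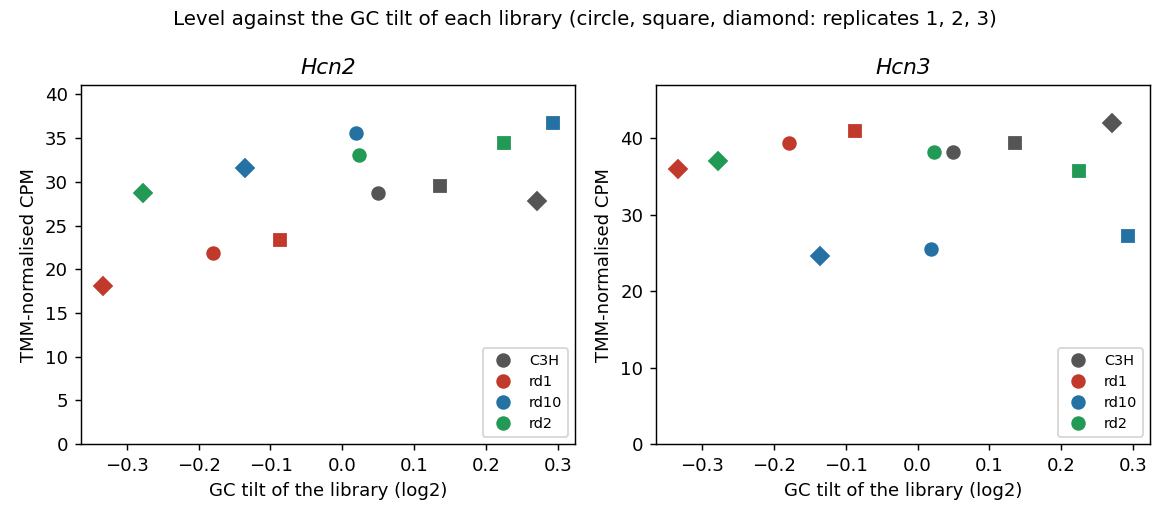
TMM-normalised CPM of Hcn2 and Hcn3 (y axes, from 0) against the GC tilt of each library (x axes, log2), with points as the 12 samples coloured by group and marked by replicate. The rd1 samples have the lowest Hcn2 levels (18.1 to 23.4 CPM) at tilts of -0.33 to -0.09, and the rd10 samples have the lowest Hcn3 levels (24.6 to 27.2 CPM) over tilts from -0.14 to 0.29.

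Hcn3 was lower in rd10. Its product is a slow channel of neurons with a weak response to cyclic nucleotides. Its FPKM were 8.96, 9.17 and 9.70 in C3H, 9.83, 10.3 and 8.91 in rd1, and 9.08, 8.57 and 8.81 in rd2. The rd10 samples had 6.17, 6.58 and 5.97, below every sample of the other groups, which overlapped each other. CPM ranges that did not overlap with rd10 were found for 59.2% of all genes in C3H, 63.2% in rd1 and 49.0% in rd2. The log2 fold change of rd10 over C3H was -0.63 (SE 0.06, adjusted p = 4.5e-08), a 1.55-fold lower level, and Hcn3 was the member called in rd10. In direct tests it was -0.59 against rd1 (adjusted p = 1.6e-07) and -0.52 against rd2 (adjusted p = 1.2e-06). Over 19 alternative settings, the value against C3H ranged from -0.67 to -0.51 with an adjusted p under 0.05 in each, and it was -0.61 against the C3H sample of day 23 alone. With library totals in place of TMM it was -0.57, and with limma on log2(FPKM + 1) or log2(FPKM + 0.1) -0.51 or -0.57, which is under 1.5-fold and ends the call. In rd1 the log2 fold change was -0.02 (95% confidence interval -0.13 to 0.10), with a sign that changed with the scaling, and in rd2 it was -0.10 (-0.24 to 0.03). Since the study's methods give rd10 another strain than its control, strain and mutation cannot be told apart for this gene.

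Hcn4 did not pass the test in any model, with group means from 7.45 to 8.71 FPKM. Its product is the pacemaker channel of the heart, and in the retina it is found in some cone bipolar cells. The FPKM were 7.74, 8.23 and 8.01 in C3H, 8.73, 8.73 and 8.68 in rd1, 7.94, 8.84 and 7.75 in rd10, and 7.67, 7.79 and 6.90 in rd2, and neighbouring groups in the order of levels overlapped. The log2 fold changes over C3H were 0.05 in rd1 (95% confidence interval -0.05 to 0.15), -0.02 in rd10 (-0.15 to 0.10) and -0.13 in rd2 (-0.27 to -0.00), with adjusted p of 0.426, 0.744 and 0.203. All rd1 samples were above C3H in FPKM but not in TMM-normalised CPM. The scaling factors of TMM lay between 0.961 and 0.974 in C3H and between 1.03 and 1.04 in rd1, and with library totals in place of TMM the rd1 value was 0.12 and passed (adjusted p = 0.034). With the GC trend removed it was 0.16 (adjusted p = 0.0040).

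The direct tests between models put numbers to these contrasts, in a fit of all 12 samples and 19616 genes. Between rd10 and rd1, 2 of the 5 members were called, against 28.8% of all genes, and 3 had an adjusted p under 0.05, against 57.2%. Hcn2 was 1.64-fold higher in rd10 than in rd1 (log2 0.72, SE 0.09, adjusted p = 6.9e-07) and Hcn3 was lower in rd10 (log2 -0.59, SE 0.06), just past the fold threshold. The count of called members was 1 without rd1 replicate 1, rd1 replicate 2, rd10 replicate 1 or rd10 replicate 3. Prkg1 did not differ beyond its error between rd10 and rd1 (log2 0.01, 95% confidence interval -0.10 to 0.13). Between rd2 and rd1, 1 member was called, against 16.9% of all genes, and 3 had an adjusted p under 0.05, against 39.8%. Hcn2 was 1.52-fold higher in rd2 (log2 0.61, SE 0.09, adjusted p = 1.3e-05), while Prkg1 (log2 -0.19, adjusted p = 0.012) and Hcn4 (log2 -0.16, adjusted p = 0.036) were lower. The Hcn2 call missed the fold threshold with the GC trend removed (log2 0.57), with library totals (0.54), and without rd1 replicate 3 or without rd2 replicate 2. Prkg1 no longer passed without either of the same samples (adjusted p = 0.059 and 0.055), and Hcn4 no longer passed without any 1 of the rd1 samples or without rd2 replicate 3 (adjusted p = 0.075 to 0.161). Between rd10 and rd2, 0 members were called, against 19.7%, and 3 had an adjusted p under 0.05, against 43.9%: Prkg1 (log2 0.20, adjusted p = 0.0067), Prkg2 and Hcn3.

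The balance of Hcn2 to Hcn3, as an FPKM ratio within each sample, had ranges that did not overlap among the 4 groups. It was 0.939 ± 0.0671 (SD, n = 3) in C3H, 0.706 ± 0.0474 in rd1, 1.74 ± 0.0727 in rd10 and 1.13 ± 0.123 in rd2. The ranges were 0.862 to 0.978 in C3H, 0.653 to 0.743 in rd1, 1.67 to 1.81 in rd10 and 1.01 to 1.26 in rd2, with no overlap. The ratio was lower than in C3H through Hcn2 in rd1, and higher in rd10 through both genes. This ratio was chosen after the levels were seen, and no test was made of it. FPKM are not corrected for the GC tilt. In all 4 groups replicate 3 had the lowest ratio (0.653 in rd1, 1.67 in rd10, 1.01 in rd2 and 0.862 in C3H). Its tilt was the lowest of the group in rd1, rd10 and rd2 and the highest in C3H. The part of the tilt in the ratio was not tested, and rd2 and C3H lay close, at 1.01 against 0.978. The ratio of Hcn4 to Hcn3 was 0.862 in C3H, 0.905 in rd1, 1.31 in rd10 and 0.846 in rd2.

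**Figure D4:**
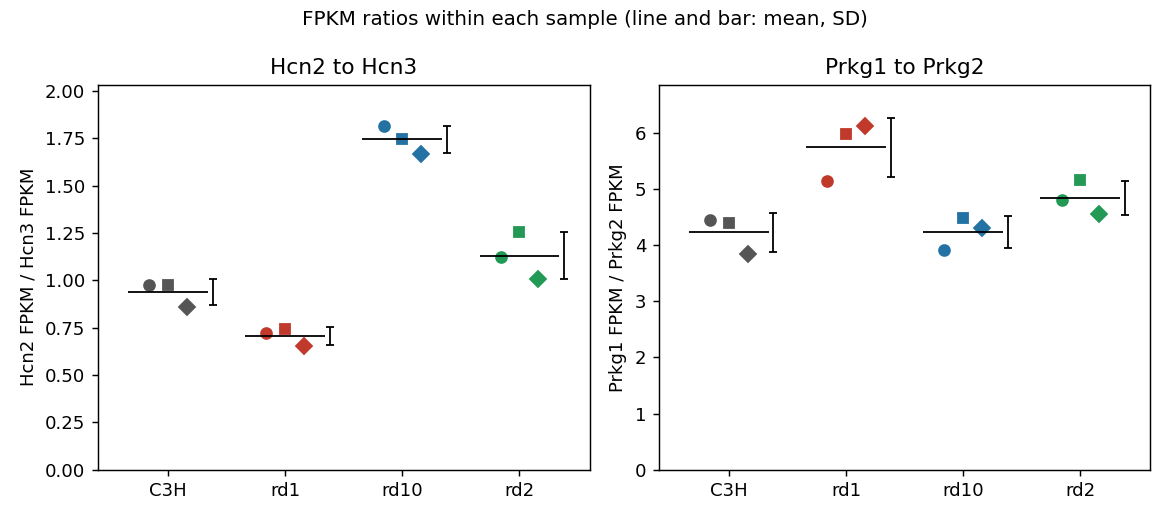
FPKM ratios of Hcn2 to Hcn3 and of Prkg1 to Prkg2 within each sample (y axes, from 0) by group (x axes), with points as samples, lines as means and bars as the SD. The Hcn2 to Hcn3 ratios of the 4 groups do not overlap, from 0.653 to 0.743 in rd1 up to 1.67 to 1.81 in rd10, and the Prkg1 to Prkg2 ratios are highest in rd1 (5.15 to 6.13).

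Across the 12 samples, each member had genes that followed it closely on log2 CPM, given here as a description because all genes share the same libraries. Prkg1 was followed most closely by Rapgef6, an exchange factor for Rap GTPases (Pearson r = 0.971), B3galnt2, a glycosyltransferase (r = 0.959), and Mat2a, which makes the methyl donor S-adenosylmethionine (r = 0.957). For Prkg2 the genes were Lactb2, a mitochondrial ribonuclease (r = 0.914), mt-Co1, a subunit of cytochrome c oxidase from the mitochondrial genome (r = 0.892), and Git2, a GTPase-activating protein for Arf (r = 0.891). Hcn2 was followed by Fam43a (r = 0.984), Cpne6, a calcium-dependent lipid-binding protein of neurons (r = 0.983), and Tpbgl (r = 0.975). These were GC-rich too, with 57.7%, 57.5% and 62.1% G and C in their longest transcripts. Hcn3 was followed by Selenon, a selenoprotein of the endoplasmic reticulum (r = 0.987), Aplnr, the apelin receptor of vessels (r = 0.982), and Spats2 (r = 0.981). The mean FPKM of Aplnr was 6.35 in C3H, 6.76 in rd1 and 5.03 in rd2, but 1.46 in rd10. For Hcn4 they were Ldhal6b (r = 0.939), Smarcd3, a chromatin remodelling subunit (r = 0.932), and Ciz1 (r = 0.932). Among the members themselves r was between -0.65, for Prkg2 with Hcn3, and 0.46, for Prkg2 with Hcn2.

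The genes around the 5 members were read from 7 lists of 71 genes in all. In rd1, 0 of the 62 genes tested were called higher, against 8.98% of all genes, and 12 were called lower, against 6.03%. In rd10, 8 of 62 were called higher, against 15.9% of all genes, and 1 lower, against 8.08%. In rd2, 2 of 63 were called higher and 2 lower, against 2.68% and 1.89%. The genes of cGMP synthesis made up 7 of the 12 lower genes in rd1, of 14 tested, with a list median of -0.53 against -0.01 over all genes. With limma on log2(FPKM + 1), a scale that understates low genes, the 7 became 4. Guca1b and Guca1a, the calcium sensors that switch the photoreceptor guanylate cyclases on, fell by 2.74 and 1.98 on the log2 scale. Gucy2e, the main photoreceptor cyclase, had -0.81 and Gucy2f, its relative, -0.67. In rd10, Gucy2f was called lower (-0.76) and Guca1a higher (0.73), and in rd2 Guca1b (-0.70) and Impdh1 (-0.63), an enzyme of guanine nucleotide synthesis, were called lower. The list medians were -0.04 in rd10 and 0.05 in rd2. Of the 9 phosphodiesterases outside the PDE6 family, 1 was called: Pde3b, higher in rd10 (0.78), with list medians of 0.11, 0.21 and 0.02 in rd1, rd10 and rd2.

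Among the PKG substrates and partners, 3 of 14 were called lower in rd1, against 6.03% of all genes: Tph2, which makes serotonin (-1.48), Ppp1r17, a phosphatase inhibitor that PKG activates (-0.92), and Mrvi1, which links PKG to the IP3 receptor (-0.74). In rd10, 3 of 14 were called higher, against 15.9% of all genes: Tph2 (1.07), Itpr1, an IP3 receptor (0.87), and Trpc6, a cation channel (0.68). In rd2, 2 of 15 were called higher, against 2.68% of all genes, Tph2 (0.75) and Ppp1r17 (0.61). The list medians were -0.19 in rd1, 0.19 in rd10 and 0.11 in rd2. With limma on log2(FPKM + 1), these counts became 1 lower in rd1, 1 higher in rd10 and 0 in rd2, and the count in rd2 was 1 without rd2 replicate 1, with the C3H sample of the matched day alone and with the GC correction. The 3 model comparisons share the C3H samples.

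The 6 subunits of the cAMP-dependent kinase, the enzyme nearest to PKG, held no call in any model. In rd1, 5 of the 6 had an adjusted p under 0.05 and a lower level, the largest difference being that of Prkar1b (-0.34), and Prkar2b was higher (0.20), where 43.2% of all genes passed that criterion in either direction. In rd10, Prkar2a (-0.26) and Prkar2b (-0.48) were lower by that criterion, and in rd2 none was. Of the 4 CNG channel subunits tested, Cnga3, the cone subunit, was called higher in rd10 (1.02), where the summed cone markers were also higher, at 787 to 803 CPM against 538 to 552 in C3H. In rd10, 15.9% of all genes were called higher. The rod subunits Cnga1 and Cngb1 had -0.49 and -0.57 in rd1 and -0.56 and -0.36 in rd10, each with an adjusted p under 0.05 and a fold below 1.5.

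Of the 8 HCN partners tested, 2 were called, both lower in rd1, where 6.03% of all genes were called lower. Kcne2, an accessory channel subunit, had -0.69 (adjusted p = 8.2e-10). Lrmp, a partner of HCN4, had -0.72, with an adjusted p of 0.087. The count was 1 with DESeq2, upper-quartile factors, library totals, a filter of 1 CPM, both limma fits, the GC correction and the C3H sample of the matched day alone, and without C3H replicate 3 or any 1 of the rd1 samples. Pex5l (TRIP8b), which controls the trafficking of HCN channels and their response to cAMP, had -0.38 in rd1 and -0.29 in rd10, each with an adjusted p under 0.05 and below the fold threshold, and 0.04 in rd2. The list medians were -0.00 in rd1, -0.10 in rd10 and -0.00 in rd2. Of 7 genes of the calpain and PARP systems, which act downstream of calcium and cGMP in dying photoreceptors, 2 were called, both higher in rd10: Cast, the calpain inhibitor (1.08), and Capn1, a calpain (0.90). In rd10, 15.9% of all genes were called higher. The list medians were 0.09, 0.14 and -0.00.

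**Figure D5:**
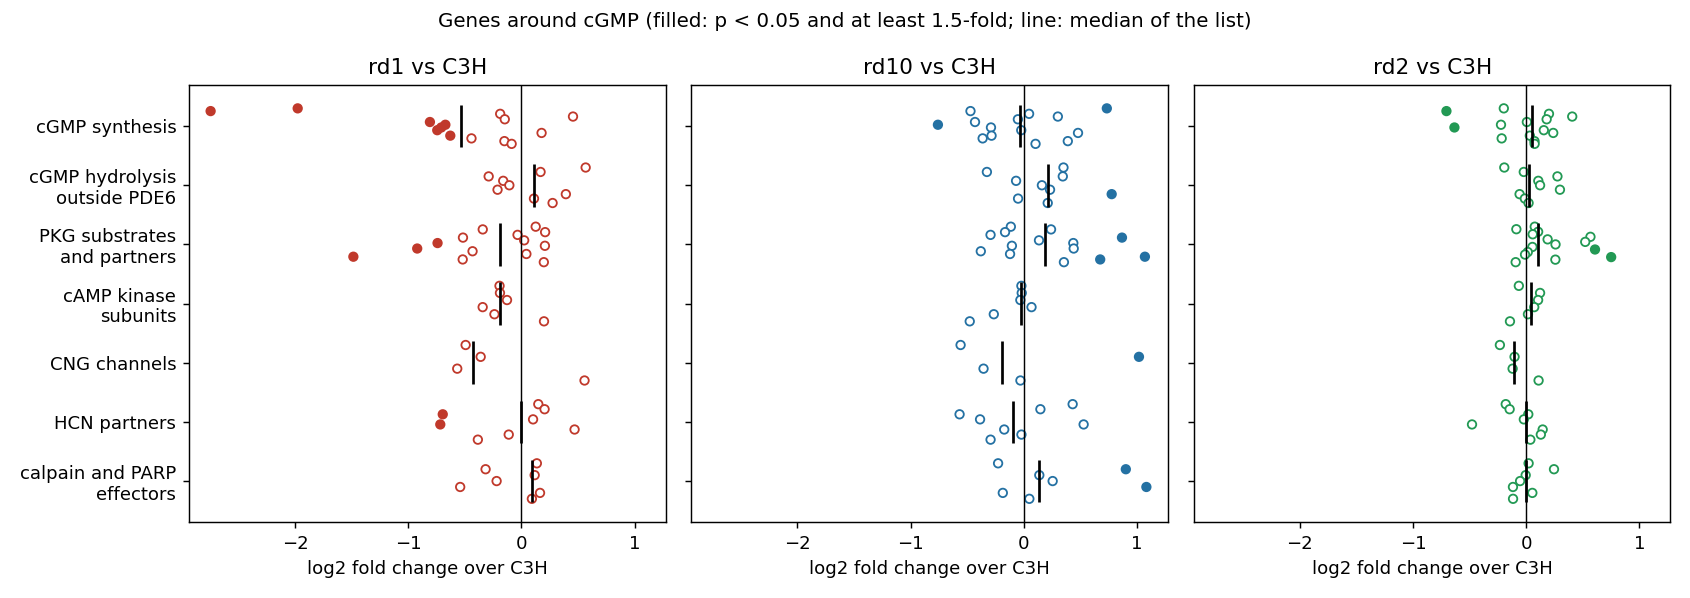
Log2 fold change over C3H (x axes) of the tested genes in 7 lists around cGMP (y axis), with 1 panel per model; filled points were called at p under 0.05 and at least 1.5-fold, and black lines are list medians. The lowest points in rd1 are Guca1b (-2.74) and Guca1a (-1.98), and the highest in rd10 are Cast (1.08) and Tph2 (1.07).

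Markers of cell types moved as well. The counts of called markers stand beside these shares of all genes: 8.98% higher and 6.03% lower in rd1, 15.9% and 8.08% in rd10, and 2.68% and 1.89% in rd2. Of 10 rod markers, 7 were called lower in rd1, 6 in rd10 and 4 in rd2, and their summed CPM was 30307 to 31085 in C3H, 15816 to 16022 in rd1, 24791 to 25597 in rd10 and 20306 to 21509 in rd2. Of 8 cone markers, which include Cngb3, 1 was called higher and 4 lower in rd1, 3 higher and 1 lower in rd10 and 0 in rd2, with sums of 538 to 552 CPM in C3H, 382 to 395 in rd1, 787 to 803 in rd10 and 556 to 582 in rd2. Of 12 bipolar cell markers, 1 was called lower in rd1 and 0 in rd10 and rd2, and their sum was 2496 to 2574 CPM in C3H, 2510 to 2535 in rd1, 2178 to 2194 in rd10 and 2507 to 2621 in rd2. Hcn3 and the bipolar markers were thus both lowest in rd10, while Hcn2 was highest there. Microglial markers were called higher in rd10 for 9 of 10 genes, with sums of 101 to 105 CPM in C3H and 258 to 284 in rd10. Of 8 Müller glia markers, 4 were called lower in rd1, where the sum was 2049 to 2087 CPM against 3664 to 3806 in C3H, and amacrine markers, with no call, summed to 958 to 981 against 1140 to 1183. Of 10 markers of vessels and mural cells, where Prkg1 is also expressed, 3 were called lower in rd1, 1 higher in rd10 and 0 in rd2. Their sums were 303 to 311 CPM in C3H, 207 to 218 in rd1, 288 to 295 in rd10 and 288 to 304 in rd2. No marker of these lists was at 0 in a whole group. The part of these shifts in the results for the 5 members and the gene lists was not tested.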

How the data were processed

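Directional libraries depleted of ribosomal RNA were made from the retinas of 12 samples, and sequenced reads were aligned by the authors to GRCm38. The deposited gene counts are whole reads per gene, counted by the authors with HTSeq 0.11.2 (per the submitters' processing notes) and not normalized. For the deposited FPKM values, the authors scaled each count by a length per gene and by the library's total on genes. The deposited circRNA counts and TPM values were searched for the members: 0 of the 12510 circRNAs were hosted by or lay within one, so they gave no values.

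Counts were tested in R 4.3.3 with edgeR 4.0.16 (TMM, filterByExpr, quasi-likelihood test), each model against the 3 C3H samples, and models against each other in a fit of 12 samples. Benjamini-Hochberg adjustment covered all genes tested. DESeq2 1.42.0, limma 3.58.1 on log2(FPKM + 1) and log2(FPKM + 0.1), other normalizations and filters, a replicate block, leaving out each sample and the C3H sample of the matched day were alternatives. A correction for GC content (lowess per library on the longest transcript of each gene) was added after seeing the data. The scripts were tested on simulated data, where the planted fold changes were larger than those of the members. That check does not show how well smaller differences are found. Precision is limited by 3 samples per group and by counting error. The members and gene lists were chosen with earlier results of these data known. Named were all members, up to 4 called genes per list and the 3 genes with the highest r for each member; further list genes (the rod CNG subunits, cAMP kinase subunits, Pex5l) were named after their values were seen. Replicate numbers were not taken as pairs, since in no comparison did every same-numbered pair correlate above 0.1. Promoter sequences are from RefSeq, GRCm38.p6. An item withheld from the text is not reported here.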

Additional observations from a re-analysis of the deposited data

Results flagged for a closer look

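For 9 contrasts between models, the test of the difference itself gave an adjusted p under 0.05 (edgeR, fit of 12 samples). Of these, 3 set rd10 against rd1, with log2 differences of 0.45 for Prkg2, 0.72 for Hcn2 and -0.59 for Hcn3. Another 3 set rd2 against rd1, with -0.19 for Prkg1, 0.61 for Hcn2 and -0.16 for Hcn4. The last 3 set rd10 against rd2, with 0.20 for Prkg1, 0.40 for Prkg2 and -0.52 for Hcn3. In each pair 3 of the 5 members passed, where 57.2%, 39.8% and 43.9% of all genes did, in the same order of pairs. With each sample left out in turn, Hcn4 in rd2 over rd1 no longer passed in 4 of 6 fits. Prkg1 in the same pair no longer passed in 2 of 6, and Prkg2 in rd10 over rd2 in 1 of 6. Hcn2 passed the test against C3H in both Pde6b mutants with opposite signs, with -0.42 in rd1 and 0.27 in rd10, and the samples of each model lay on 1 side of all C3H samples. Of all genes, 51.8% in rd1 and 59.2% in rd10 had CPM ranges that did not overlap with C3H. Groups of 3 samples are too small for a test of single samples that stand apart.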

How the results depend on the processing

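Of 495 recomputed log2 fold changes of the members under other settings of the fit, 453 kept their direction and their side of an adjusted p of 0.05, 10 no longer passed, 5 newly passed and 27 changed sign; of 60 with the GC correction, added after seeing the data, 44 kept both, 11 newly passed and 5 changed sign. No value that passed changed sign. For Hcn3 in rd1 over C3H, which changed sign, the value was 0.019 with upper-quartile factors, 0.058 with library totals, 0.052 and 0.057 with limma on log2(FPKM + 1) and log2(FPKM + 0.1), 0.093 with the GC correction, 0.093 with that and the replicate block, 0.030 with the C3H sample of the matched day, and -0.052 to 0.034 without each sample in turn. For Hcn4 in rd10 over C3H it was 0.0077 with upper-quartile factors, 0.030 with totals, 0.028 and 0.031 in the limma fits, 0.0020 with the GC correction and the replicate block, and -0.083 to 0.016 without each sample. For Prkg1 in rd2 over C3H it was -0.029 with the GC correction, with or without the block, and -0.024 to 0.052 without each sample. For Prkg1 in rd10 over rd1 it was -0.0018 with DESeq2 and with RLE factors, -0.013 with upper-quartile factors, -0.032 with totals, -0.029 and -0.034 in the limma fits, -0.0023 without a low-count filter, and -0.024 to 0.055 without each sample. For Prkg2 in rd2 over rd1 it was -0.010 with totals, -0.0029 and -0.0058 in the limma fits, and -0.031 to 0.13 without each sample. The number of members called in rd10 over C3H became 0 with totals and in both limma fits, where Hcn3 missed the fold threshold. In rd10 over rd1 it became 1 with limma on log2(FPKM + 1) and 1 to 2 without each sample. In rd2 over rd1 it became 0 with upper-quartile factors, totals, both limma fits and the GC correction, with or without the block, and 0 to 1 without each sample. The number with an adjusted p under 0.05 became 1 with the C3H sample of the matched day in rd1 and in rd10, a fit with a single control that is assumed to vary like the model. It became 1 with the GC correction, with or without the block, and 0 to 1 without each sample in rd2 over C3H, 5 with the GC correction in rd10 over rd1, and 1 to 3 without each sample in rd2 over rd1. These causes were not tested. With the replicate number as a block alone, 2 members in rd1 and 3 in rd10 had an adjusted p under 0.05 and no call of a member changed; deviations of same-numbered samples correlated between -0.11 and 0.30 over the 6 comparisons, with means of 0.16 in rd2 and rd1 and 0.15 in rd10 and rd2 against -0.081 and -0.075 for other numbers, and as no comparison had every pair above 0.1, the numbers were not taken as pairs. The circRNA comparisons could not be fitted, as no circRNA of the members was found.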
